A study of Zea mays with 12 samples.

Results

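The segment of maize chromosome 10 whose gene models start from 70 to below 100 Mb held 518 of the 41430 gene models in the deposited tables, placed on the B73 RefGen_v3 build. Of these, 274 are described here, chosen by their place and by a mean deposited normalized value of at least 17 in one or more of 4 groups of seed libraries. That level corresponded to 1.02 to 1.05 CPM (counts per 1000000 of the library, after scaling by TMM). It was reached in all 4 groups by 211 of the 274 genes, in 3 groups by 16, in 2 groups by 31 and in 1 group by 16. A gene that reached it only in the group where it was high was bound to differ between groups. The segment was itself selected on these libraries, because the lines differed there at 15 days after pollination (DAP) and hardly at 10 DAP, so the counts of differing genes at these stages, and how near each 10 DAP library of L100 stood to wild type, describe that choice and are not evidence for it.

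Whole seeds were compared by RNA-seq between the inbred line Q319, labelled wild type, and the transgenic line L100. Seeds of each line were collected at 10 and at 15 DAP, and each of the 4 groups had 3 libraries. The gene introduced into L100, its promoter, its place in the genome, the number of plants and the way the line was bred are not stated in the labels. Whether the libraries came from separate plants is not stated either, so p-values measure the spread between these libraries, which may be technical.

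A maize seed holds the embryo, the endosperm that stores starch and protein, and the surrounding maternal tissue, and between these stages the endosperm enters grain filling. At its base lies the transfer layer, whose cells take up sugars and amino acids from the mother plant. Genes of one chromosome segment tend to be inherited together, but they need not share a function or be controlled together. In whole seeds, fewer cells of a type and less RNA per cell cannot be told apart.

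Totals ranged from 14014035 to 22370566 counts per library, and 3 counts corresponded to 0.152 to 0.23 CPM. Summed levels of starchy endosperm markers (9 gene models) were 3188 to 12930 CPM in the 6 libraries of 10 DAP and 72290 to 100700 CPM in the 6 of 15 DAP. Embryo markers (7 models) summed to 218 to 666 CPM at 10 DAP, 980 to 1260 CPM in wild type at 15 DAP and 1827 to 3080 CPM in L100 at 15 DAP. Heat shock genes (8 models) summed to 5082 to 10720 CPM in wild type at 15 DAP and 1390 to 2641 CPM in L100 at 15 DAP. Embryo surrounding region markers (3 models) summed to 2.35 to 8.13 CPM in wild type and 11.1 to 14.9 CPM in L100 at 15 DAP. The list labelled pericarp and maternal (3 models, drawn from the pigment genes p1, c2, whp1 and pr1) summed to 17.8 to 35.2 CPM in wild type and 43.6 to 94.8 CPM in L100 at 15 DAP. These pigment gene sums are not a measure of maternal tissue. The part of these differences in the results below was not tested.

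One library stood apart from its label's group within the segment. The library labelled L100 10 DAP replicate 3 lay nearer to the wild-type libraries than to the other L100 libraries of 10 DAP. The median absolute difference over the 274 genes, on the log2(CPM + 0.5) scale, was 0.23 to 0.28 between this library and the 3 wild-type libraries. It was 0.42 and 0.49 between this library and L100 replicates 1 and 2, which differed from each other by 0.31. Between 4.38% and 7.66% of the genes were at least 2-fold apart between this library and a wild-type one, against 23.4% and 27% between it and the other 2 L100 libraries. Over the 23398 other genes of the same level that were tested, the replicate 3 library differed by 0.25 and 0.32 from the other L100 libraries and by 0.25 to 0.30 from wild type, with 8.03% to 11.6% of genes at least 2-fold apart. Outside the segment the replicate 3 library thus stood about as near to the other L100 libraries as to wild type. That was not particular to it. At these genes replicate 1 stood 0.33 from replicate 2 and 0.28 to 0.33 from wild type. Replicate 2 stood 0.36 to 0.40 from wild type. No deposited genotype was analysed here, and whether the label is right for this library was not tested.

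The same library was at least 2-fold from both other L100 libraries, while those 2 lay within 2-fold of each other, at 46 of the 272 genes that passed the filter on low counts (16.9%). At the other 23398 genes the share was 3.73%. For the other 11 libraries, the share of the 272 genes was 0% to 5.15%. By 10 Mb window, the share for the replicate 3 library was 3.23% from 60 to 70 Mb, 12.8% from 70 to 80 Mb, 13.4% from 80 to 90 Mb, 25.6% from 90 to 100 Mb and 5.75% from 100 to 110 Mb. The window from 90 to 100 Mb ranked 1 of the 207 windows of the genome with at least 20 tested genes. The windows from 80 to 90 Mb and from 70 to 80 Mb ranked 8 and 15, and the highest outside the segment was 16.9%. In the window from 90 to 100 Mb, wild-type 15 DAP replicate 2 stood at 7.32%, rank 5 of the 207 for that library. The ranks of the replicate 3 library rest on values that bore on the choice of the segment. Marker sums of the replicate 3 library lay within the range of the other 5 libraries of 10 DAP, except that its embryo sum of 218 CPM was the lowest and its photosynthetic sum of 6.37 CPM the highest. Its sum over the pigment genes labelled pericarp and maternal was 13.3 CPM, within the 10.3 to 15.5 CPM of wild type, where L100 replicates 1 and 2 held 29.7 and 44 CPM. The part of these values in the results was not tested.

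**Figure D1:**
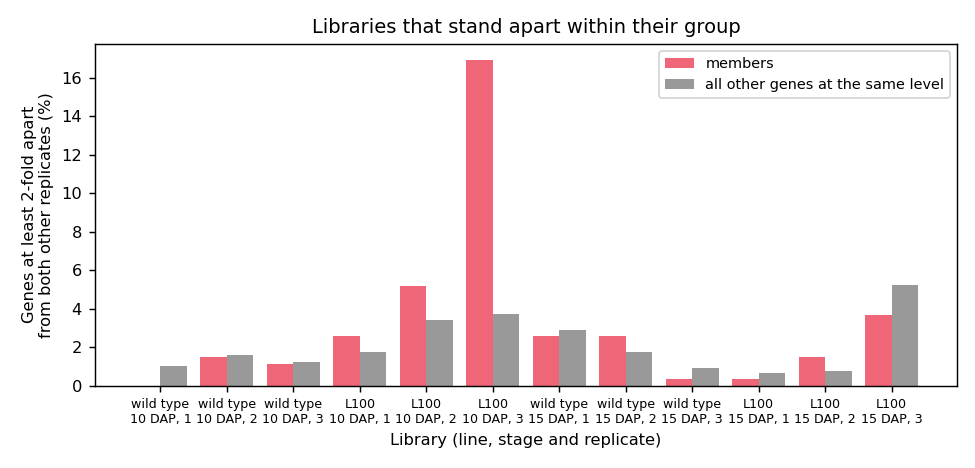
Share of genes, in percent, at which each of the 12 libraries was at least 2-fold from both other libraries of its group while those lay within 2-fold of each other, for the 272 tested genes of the segment and for 23398 other genes of the same level. The replicate 3 library of L100 at 10 DAP stands at 16.9% in the segment and at 3.73% elsewhere.

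With all libraries, the lines differed at 15 DAP in 58 of the 272 genes that entered the test (21.3%), against 6.95% of the 23670 genes of the same level. Of the 58, 32 were higher and 26 lower in L100, where 3.71% of the 23670 were higher and 3.24% lower. A gene was called where its edgeR quasi-likelihood test had a Benjamini-Hochberg adjusted p under 0.05 over all 24941 genes tested. In all 58 every library of one line lay above every library of the other, which held for 55.9% of the 272 genes and for 30.6% of the 23670. Differences of at least 2-fold were fitted for 39 of the 58. The 58 started between 71371990 and 99807827. Of them, 42 had reached the level in all 4 groups and 4 in 1 group only. Genes of the last kind were bound by the level rule to differ between groups. At 10 DAP, 10 genes differed (3.68%), against 3.11% of the 23670. Of these, 8 were higher in L100 (1.83% of the 23670) and 2 lower (1.28% of the 23670). At 10 DAP the lines were fully separated in 27.9% of the 272 genes and in 27.9% of the 23670. There were 5 genes called at both stages, 4 of them in the same direction. DESeq2 called 44 genes of the segment at 10 DAP (16.1%), against 7.76% of all genes of the level.

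When the replicate 3 library was left out, 61 of 274 genes tested (22.3%) differed at 10 DAP, 33 higher and 28 lower in L100, against 4.36% of the 23756 genes of the same level then tested. Leaving out any one of the other 11 libraries gave 1 to 16 genes (0.365% to 5.84%), against 0.989% to 5.2% of all genes of the level. The fit without replicate 3 is singled out because that library stood near wild type in this segment. Smaller p-values without it, here and for single genes below, follow from that choice and are not independent evidence. The 61 included all 10 genes called with the full set, 50 of them differed by at least 2-fold, and they started between 72306352 and 99620566. The median absolute log2 fold change at 10 DAP over the segment was 0.41 with all libraries and 0.56 without replicate 3, where all genes of the level had 0.27 and 0.31. At 15 DAP it was 0.53 in the segment and 0.28 over all genes of the level. Without the replicate 3 library, 80 genes of the segment were called at 15 DAP (29.2%), against 7.53% of all genes of the level.

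The genes called at the 2 stages partly coincided once that library was left out. Of the 58 genes called at 15 DAP, 27 (46.6%) were among the 61 called at 10 DAP without replicate 3 (44.3% of that list), and 26 of the 27 had the same direction. Of the 60 of the 61 that were tested at 15 DAP with all libraries, 58 had a fitted difference of the same sign at 15 DAP. The 2 stages share no library, but their fits share the estimate of the spread. Matching shares for genes outside the segment are not given, so this overlap cannot be read as particular to the segment. Both lists also come from a segment chosen on these calls.

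The bounds of the segment were set by its rule, and the plot of calls along the chromosome shows the windows inside and outside them. With all libraries at 15 DAP, the share called was 4.84% from 60 to 70 Mb, 17.9%, 19.6% and 26.8% in the 3 windows of the segment, and 8.05% from 100 to 110 Mb. At 10 DAP the 3 windows of the segment stood at 2.56%, 4.46% and 3.66% with all libraries and at 17.9%, 23.2% and 25% without replicate 3. The window from 60 to 70 Mb then stood at 1.61% and that from 100 to 110 Mb at 10.3%. Beyond the segment, the replicate 3 library was also nearer wild type at 8 of the 9 genes called without it from 100 to 110 Mb, at 2 of 2 from 110 to 120 Mb, at 5 of 6 from 120 to 130 Mb, and at 5 of 18 from 130 to 140 Mb.

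**Figure D2:**
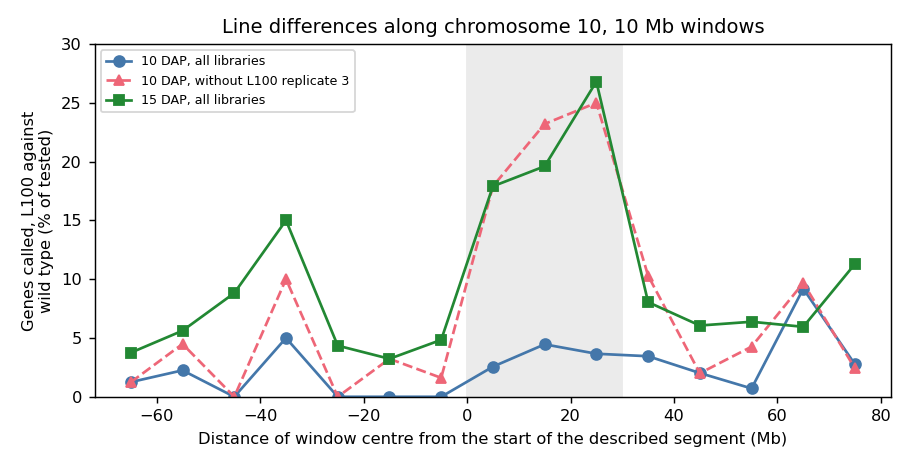
Share of tested genes called between L100 and wild type in 10 Mb windows of chromosome 10, against the distance of the window centre from the start of the segment in Mb, with the segment shaded. The 10 DAP line without replicate 3 lies near the 15 DAP line in the shaded windows, at 17.9% to 25%, and the 10 DAP line with all libraries stays at 2.56% to 4.46%.

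At the 61 genes called at 10 DAP without it, the replicate 3 library lay nearer the wild-type mean than the mean of the other 2 L100 libraries at 57 (93.4%). This describes the choice of the segment, which rested on few 10 DAP calls with replicate 3 included, and it is no independent test. At 974 genes elsewhere in the genome called in the same way, it lay nearer wild type at 412 (42.3%). Its median shift from the wild-type mean, in the direction of the other L100 libraries and on the log2(CPM + 0.5) scale, was 0.10 over the 61 genes and 0.61 over the 974. Replicates 1 and 2, which made the call, had medians of 1.70 and 1.85 over the 61. The 4 genes at which replicate 3 lay with the other L100 libraries were GRMZM2G171187, CslF6-1, GRMZM2G086496 and bap-3b.

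**Figure D3:**
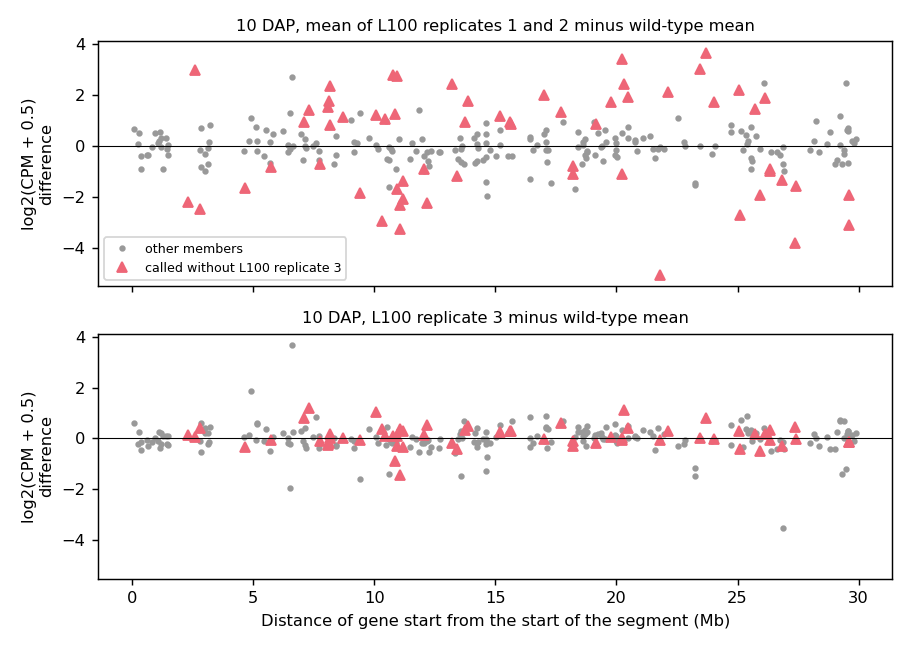
Difference from the wild-type 10 DAP mean, on the log2(CPM + 0.5) scale, of L100 replicates 1 and 2 averaged (upper panel) and of L100 replicate 3 (lower panel), against the distance of each of the 274 genes from the start of the segment in Mb. Triangles are the 61 genes called without replicate 3, which spread from high to low above and lie near 0 below, with a median shift of 0.10.

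The 10 DAP libraries were also read at the 58 genes called at 15 DAP, again as a description, since the segment was selected with the 10 DAP result known. L100 replicates 1 and 2 of 10 DAP were shifted from the wild-type 10 DAP mean by medians of 0.91 and 0.86 in the direction seen at 15 DAP. Replicate 3 was shifted by 0.09. It lay nearer wild type at 44 of the 58 genes, against 7 for replicate 1 and 6 for replicate 2. Over the 1587 other genes called at 15 DAP, the shifts of replicates 1 to 3 were 0.27, 0.27 and 0.21, and the libraries lay nearer wild type at 525, 493 and 594 genes. Here, nearer was taken between the wild-type mean and the mean of the other 2 L100 libraries.

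**Figure D4:**
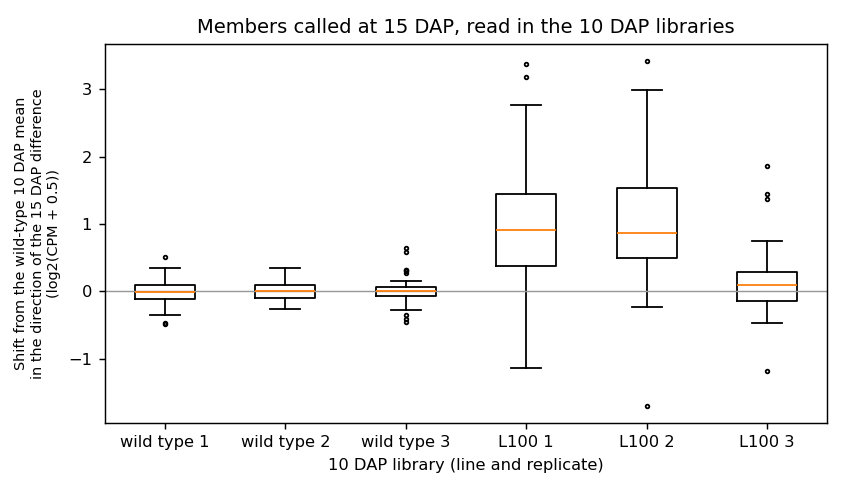
Shift of each 10 DAP library from the wild-type 10 DAP mean in the direction of the 15 DAP line difference, on the log2(CPM + 0.5) scale, over the 58 genes called at 15 DAP; boxes show the quartiles and the median, whiskers reach 1.5 times the box length at most, and points lie beyond. The medians of L100 replicates 1 and 2 are 0.91 and 0.86, and that of L100 replicate 3 is 0.09.

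Of the 58 genes called between the lines at 15 DAP, 35 (60.3%) had no call between the stages in either line, close to the 57.8% of all 23670 genes of the level. A further 7 were higher at 15 DAP in wild type with no call in L100, 4 were lower in wild type with no call in L100, and 5 were lower in both lines. In L100 alone, 2 were higher and 4 lower, and CslF6-1 was higher in wild type and lower in L100. These groupings rest on which tests passed, and the differences between them were not tested apart from the interaction given further on.

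Some genes of the segment had counts in one line and none in a whole group of the other. There were 15 genes with 0 counts in every library of one or more groups. Each of them reached the level only through its other groups. The share of such genes over all genes of the level is not given, so this count cannot be read as particular to the segment. At 8 of them all 3 L100 libraries of 15 DAP were at 0. L100 replicates 1 and 2 of 10 DAP held 0 to 2 counts at these 8 genes, and the replicate 3 library held 5 to 183. At the other 7, a wild-type group was at 0. There the replicate 3 library held 0 to 3 counts, and replicates 1 and 2 held up to 63 each. Counts of 0 allow up to 3 counts per library, which covers counting error only.

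The clearest of these was GRMZM2G397785, which starts at 97377587 and has no gene name in the reference table. Wild type held 6.38, 6.01 and 8.66 CPM at 10 DAP, and L100 held 0.0578, 0 and 9.56 CPM in replicates 1 to 3. At 15 DAP wild type held 12.4, 10.9 and 8.79 CPM and all 3 L100 libraries held 0. The replicate 3 library was thus above all 3 wild-type libraries of its stage, and the other 5 L100 libraries were at or near 0. The level at 15 DAP was at least 51.1-fold lower in L100, measured against 3 counts per library, but the edgeR adjusted p was 0.067 and did not pass. At 10 DAP the edgeR adjusted p was 0.69 with all libraries and 0.00026 without replicate 3.

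The pattern recurred in 3 further models, again without a gene name. Maize_newGene_1288 held 5.81, 3.41 and 4.71 CPM in wild type at 10 DAP against 0, 0.0536 and 5.96 CPM in L100, and was at least 18.1-fold lower in L100 at 15 DAP (edgeR adjusted p = 0.091, not passed). AC188036.3_FG003 held 1.71, 1.54 and 2.49 CPM against 0, 0 and 2.93 CPM at 10 DAP, and was at least 18.1-fold lower at 15 DAP (edgeR adjusted p = 0.066, not passed). In Maize_newGene_1278 the wild-type level at 15 DAP was 12, 7.83 and 4.95 CPM, at least 39.5-fold above L100, and that difference passed (edgeR adjusted p = 0.0075). In all of these, the replicate 3 library of L100 lay within or near the wild-type values and the other L100 libraries did not.

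The opposite pattern, counts in L100 and none in wild type, was led by GRMZM2G018099. All 6 wild-type libraries held 0. L100 held 3.64, 3.38 and 0 CPM in replicates 1 to 3 at 10 DAP and 0.563, 0.208 and 0.46 CPM at 15 DAP. The replicate 3 library of 10 DAP thus matched wild type at 0. This gene reached the level only through L100 at 10 DAP, and it failed the filter on low counts. It was tested when that library was left out, with an edgeR adjusted p of 0.0046 at 10 DAP. That p follows from these 2 choices and is not evidence of a line difference. In GRMZM2G033862 wild type was at 0 in all 6 libraries, and L100 held 0.578, 0.643 and 0 CPM at 10 DAP. At 15 DAP L100 held 2.44, 2.36 and 2.99 CPM, at least 15.3-fold above wild type (edgeR adjusted p = 0.021). GRMZM2G033862 reached the level only through L100 at 15 DAP, so its p is not evidence of a line difference. Maize_newGene_1280 held 2.37, 1.72 and 0 CPM in L100 at 10 DAP with wild type at 0. At 15 DAP it held 3.38, 3.13 and 3.37 CPM in L100, with 0, 0 and 0.152 CPM in wild type (edgeR adjusted p = 0.047). The 15 DAP call of Maize_newGene_1280 was lost, with an edgeR adjusted p of up to 0.15, when any of 11 libraries was left out in turn, and that of GRMZM2G033862 when any of 4 was.

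Of the genes detected in both lines, GRMZM2G119116 showed the pattern over a wide range. Wild type held 46.3, 39.2 and 41.5 CPM at 10 DAP, and L100 held 4.22, 4.88 and 38.7 CPM. At 15 DAP the values were 39.5, 45.2 and 35.2 CPM in wild type and 4.51, 4.1 and 6.44 CPM in L100. At both stages every L100 library except replicate 3 of 10 DAP lay far below wild type, and that one lay just below its lowest wild-type value. The log2 fold change at 15 DAP was -3 (SE 0.74, edgeR adjusted p = 0.04), and that at 10 DAP went from -1.41 (edgeR adjusted p = 0.28) to -3.23 (edgeR adjusted p = 2.3e-05) without replicate 3. The smaller p at 10 DAP follows from leaving out the library that stood with wild type. The 15 DAP call was lost when any one of 9 libraries was left out, with an edgeR adjusted p up to 0.13. The model overlaps GRMZM2G119127 on the opposite strand, and the strand setting of the counting is not stated, so reads of these 2 models cannot be told apart.

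NAC61, a gene of the NAC transcription factor family, was higher in L100 and is named because its values were seen. At 10 DAP it stood at 8.97, 10.7 and 9.8 CPM in wild type and at 31.1, 37.6 and 8.57 CPM in L100. At 15 DAP wild type held 13.8, 15.1 and 13.2 CPM and L100 held 35.7, 38.2 and 56.2 CPM. The lines did not overlap at 15 DAP, and at 10 DAP only replicate 3 of L100 fell below the wild-type libraries. The log2 fold change was 1.63 at 15 DAP (SE 0.41, edgeR adjusted p = 0.041) and 1.39 at 10 DAP (edgeR adjusted p = 0.1), and without replicate 3 it was 1.79 at 10 DAP (edgeR adjusted p = 0.00047). The 15 DAP call of NAC61 was lost when any one of 9 libraries was left out, with an edgeR adjusted p up to 0.12.

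Ca-5 held 28.6, 24.7 and 26.3 CPM in wild type at 10 DAP and 73.1, 108 and 27.3 CPM in L100. Its 15 DAP values were 21.5, 14.9 and 20.4 CPM in wild type and 64.1, 72.1 and 72.1 CPM in L100. The 5 L100 libraries other than replicate 3 of 10 DAP lay above every wild-type library. The log2 fold change at 15 DAP was 1.87 (SE 0.38, edgeR adjusted p = 0.017). At 10 DAP it was 1.39 (edgeR adjusted p = 0.076), or 1.76 without replicate 3 (edgeR adjusted p = 0.00043).

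**Figure D5:**
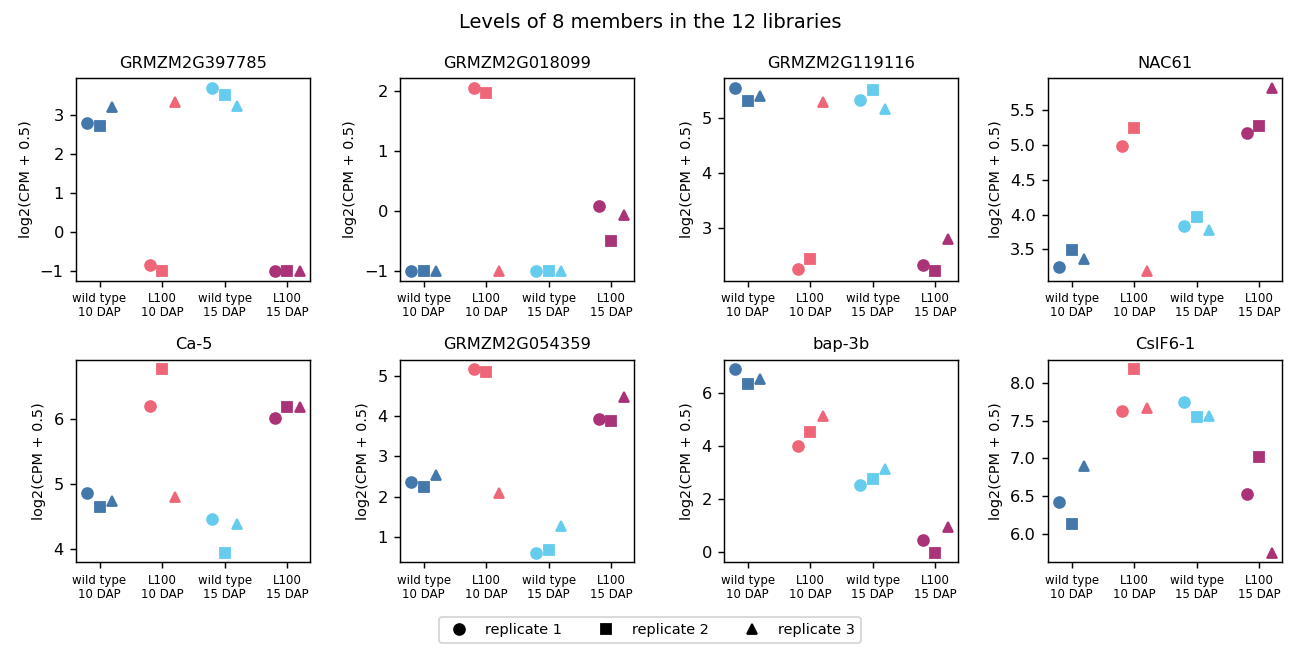
Levels of 8 genes of the segment in the 12 libraries, as log2(CPM + 0.5), by line and stage, with the replicate number shown by the marker; the genes were selected after their values were seen. In the first 6 panels the triangle of L100 at 10 DAP lies with wild type, and in bap-3b and CslF6-1 it lies with the other L100 libraries.

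Among genes of the segment with the largest called differences at 15 DAP, several others had the same pattern at 10 DAP. GRMZM2G054359 held 4.68, 4.28 and 5.36 CPM in wild type at 10 DAP and 35.3, 33.5 and 3.81 CPM in L100, with 1.03, 1.11 and 1.92 CPM against 14.6, 14.1 and 21.9 CPM at 15 DAP (log2 fold change 3.62, edgeR adjusted p = 0.015). Maize_newGene_1393 held 1.14, 1.07 and 0.704 CPM in wild type at 10 DAP and 14.6, 15.1 and 0.888 CPM in L100, and its log2 fold change at 15 DAP was 4.91 (edgeR adjusted p = 0.012). In both, the replicate 3 library was at the wild-type level and the other 2 L100 libraries were many times higher. GRMZM2G021170 was lower in L100, with 60, 58.3 and 57.5 CPM in wild type and 22.6, 23.8 and 47.3 CPM in L100 at 10 DAP. Its log2 fold change at 15 DAP was -1.40 (edgeR adjusted p = 0.0073). Its replicate 3 value lay between the groups, nearer wild type.

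Other large 15 DAP differences had less of a counterpart at 10 DAP. GRMZM2G439268 was at 0 in wild type at 10 DAP and at 0.173, 0.214 and 0.104 CPM in L100, close to the floor. At 15 DAP it held 0.688, 0.123 and 0.0505 CPM in wild type and 14, 10.6 and 38.3 CPM in L100 (edgeR adjusted p = 0.0041). GRMZM2G439268 reached the level only through L100 at 15 DAP, so this p is not evidence of a line difference. GRMZM2G015605 held 67, 75.8 and 47.8 CPM in wild type and 6.32, 5.14 and 10.7 CPM in L100 at 15 DAP, with a log2 fold change of -3.11 (edgeR adjusted p = 0.005). At 10 DAP it held 34.1, 28.1 and 33.7 CPM in wild type and 6.59, 19.5 and 29.2 CPM in L100, where replicate 1 stood lowest and replicate 3 within the wild-type range. GRMZM2G446895 differed by -1.24 at 15 DAP (edgeR adjusted p = 0.0037), with 69.2, 65 and 72 CPM in wild type and 32.8, 31.3 and 22.8 CPM in L100. At 10 DAP it held 33.9, 45 and 39.1 CPM in wild type and 30.5, 23.3 and 38.5 CPM in L100. For GRMZM2G343519, at 2.75, 2.34 and 1.57 CPM in wild type and 0.188, 0.208 and 0.23 CPM in L100 at 15 DAP (log2 fold change -3.37, edgeR adjusted p = 0.0086), the lines overlapped at 10 DAP.

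The remaining large differences at 15 DAP were mostly in genes of low level, other than GRMZM2G103825, which held 4.98 to 7.28 CPM in wild type at 10 DAP. GRMZM2G078906, GRMZM2G110567, GRMZM2G093022 and Yucca2, a flavin monooxygenase gene of auxin synthesis, were higher in L100, by 5.22, 3.38, 3.42 and 4.19 on the log2 scale. Yucca2 held 0, 0.185 and 0.0505 CPM in wild type and 1.56, 1.74 and 1.23 CPM in L100 at 15 DAP (edgeR adjusted p = 0.024). Maize_newGene_1388 was at 0 in wild type at 15 DAP and at least 10.1-fold higher in L100 (edgeR adjusted p = 0.045), a call lost when any one of 11 libraries was left out (edgeR adjusted p up to 0.11). GRMZM2G103825 was lower in L100 by 1.51 on the log2 scale (log2 fold change -1.51, edgeR adjusted p = 0.033), as was Maize_newGene_1399 (log2 fold change -3.14, edgeR adjusted p = 0.005). Maize_newGene_1279 was at 0 in L100 and at least 5.45-fold lower (edgeR adjusted p = 0.017). It reached the level only through wild type at 15 DAP, so its p is not evidence of a line difference. The calls of GRMZM2G110567 and GRMZM2G103825 were each lost when any one of 8 libraries was left out. Of all 58 calls at 15 DAP, 14 held without each library in turn.

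Informative gene names in the reference table were found for 25 genes of the segment. Of these, 8 were called at 15 DAP, 4 in each direction, and 3 at 10 DAP, or 10 at 10 DAP without replicate 3. Over all genes of the level the shares were 6.95%, 3.11% and 4.36%. At 15 DAP the 4 higher in L100 were NAC61, Ca-5, NHX3 and Yucca2, and the 4 lower were CslF6-1, mpk6, stm1 and bap-3b.

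Transfer-layer genes of the bap family, which encode small proteins of the basal endosperm, lie near 81 Mb, and bap-3b differed at both stages. It held 118, 78.8 and 91.5 CPM in wild type and 15.5, 22.8 and 34.4 CPM in L100 at 10 DAP. The 15 DAP libraries held 5.28, 6.29 and 8.38 CPM in wild type and 0.876, 0.486 and 1.46 CPM in L100. The lines did not overlap at either stage, and replicate 3 of L100 at 10 DAP, although the highest of its group, lay below every wild-type library. The log2 fold change was -1.99 at 10 DAP (SE 0.30, edgeR adjusted p = 0.0063) and -2.84 at 15 DAP (SE 0.41, edgeR adjusted p = 0.0034), and both calls held without each of the 12 libraries in turn. The gene overlaps Maize_newGene_1288 on the opposite strand, whose own values are given above, so reads of the pair may be split between them. The level of bap-3b was lower at 15 than at 10 DAP in wild type (log2 fold change -3.85, edgeR adjusted p = 2.7e-05) and in L100 (log2 fold change -4.70, edgeR adjusted p = 3.8e-05). Summed levels of 4 other transfer-layer models were 1221 to 1773 CPM in wild type and 828 to 1565 CPM in L100 at 10 DAP, and 476 to 791 CPM against 611 to 679 CPM at 15 DAP. Their part in the bap-3b difference was not tested.

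The neighbouring bap-1a held 156, 116 and 98.9 CPM in wild type and 257, 329 and 65.5 CPM in L100 at 10 DAP. Replicate 3 of L100 was the lowest of the 6 libraries and the other 2 were the highest. The log2 fold change was 0.81 with all libraries (edgeR adjusted p = 0.38) and 1.23 without replicate 3 (edgeR adjusted p = 0.037). At 15 DAP the gene held 20.6, 15.8 and 31.5 CPM in wild type and 46.8, 41.1 and 63.3 CPM in L100, without overlap but without a call (edgeR adjusted p = 0.2).

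CslF6-1, a gene of the cellulose synthase-like family whose CslF6 members make the mixed-linkage glucan of grass cell walls, differed in opposite directions at the 2 stages. It held 84.9, 69.7 and 119 CPM in wild type and 197, 290 and 203 CPM in L100 at 10 DAP. Its levels at 15 DAP were 213, 186 and 188 CPM in wild type and 91.6, 129 and 53.2 CPM in L100. The lines did not overlap at either stage, and all 3 L100 libraries of 10 DAP, replicate 3 included, were above wild type. The log2 fold change was 1.33 at 10 DAP (SE 0.29, edgeR adjusted p = 0.037) and -1.10 at 15 DAP (SE 0.29, edgeR adjusted p = 0.047). The difference at 15 DAP minus that at 10 DAP was -2.43 (SE 0.42, edgeR adjusted p = 0.041). Between the stages the gene was higher at 15 DAP in wild type (log2 fold change 1.10, edgeR adjusted p = 0.015) and lower in L100 (log2 fold change -1.33, edgeR adjusted p = 0.0073). Each of these line calls is close to the threshold: the 10 DAP call was lost when any one of 7 libraries was left out, the 15 DAP call for any one of 11 and the interaction for any one of 9, with edgeR adjusted p up to 0.16, 0.12 and 0.11.

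The interaction between line and stage passed for 2 of the 272 genes, CslF6-1 and GRMZM2G173040 (0.735%), against 0.57% of the 23670 genes of the level. At an unadjusted p under 0.05 there were 50 genes of the segment (18.4%), against 17.1% of the 23670, and DESeq2 called 12 (4.49%), against 4.47% of all genes of the level. GRMZM2G173040, which starts at 99807827, held 32.1, 35.1 and 30.6 CPM in wild type and 40.1, 30.4 and 30 CPM in L100 at 10 DAP. At 15 DAP it held 38.5, 32.4 and 27.1 CPM in wild type and 72.7, 78.4 and 114 CPM in L100. The L100 libraries of 15 DAP thus stood above the other 9, which overlapped. Its line difference was 0.04 at 10 DAP and 1.44 at 15 DAP (SE 0.19, edgeR adjusted p = 0.002), and the interaction was 1.40 (SE 0.27, edgeR adjusted p = 0.047). The 15 DAP call held without each library in turn, and the interaction call was lost when any one of 10 libraries was left out, replicate 3 of L100 at 10 DAP among them, with an edgeR adjusted p up to 0.13.

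Signalling and transport genes were among the other named calls. The MAP kinase gene mpk6 was lower in L100 at 15 DAP, with 44.1, 50.8 and 36.9 CPM in wild type and 24.9, 20.8 and 20.3 CPM in L100 (log2 fold change -0.99, SE 0.21, edgeR adjusted p = 0.0089), and the call held without each library in turn. At 10 DAP it held 35, 33.9 and 30.1 CPM in wild type and 23.1, 28.5 and 37.3 CPM in L100, where replicates 1 and 2 lay below and replicate 3 above every wild-type library. The stomatin gene stm1 was lower at 15 DAP, at 69.3, 82.7 and 89.1 CPM against 45.4, 44.3 and 42.5 CPM (log2 fold change -0.87, edgeR adjusted p = 0.016). At 10 DAP its wild-type libraries held 115, 119 and 115 CPM and L100 held 59.8, 82.3 and 108 CPM, with replicate 3 again the nearest to wild type, and the edgeR adjusted p went from 0.16 to 0.021 without that replicate. NHX3, a gene of the sodium/proton antiporter family, was higher at 15 DAP by a log2 fold change of 0.50 (edgeR adjusted p = 0.023), with 24.1, 28.4 and 26.5 CPM in wild type and 38.9, 33.6 and 39 CPM in L100. Its 10 DAP values of 37.2, 39.8 and 36.9 CPM in wild type and 38.6, 45 and 40.9 CPM in L100 overlapped.

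A stress gene and a cell wall gene gave 2 further cases in which replicate 3 of L100 at 10 DAP stood near wild type and away from the other L100 libraries. The gene hsp82, which encodes a chaperone of the HSP90 class, held 1.33, 0.802 and 1.95 CPM in wild type and 23.8, 20.7 and 2.66 CPM in L100 at 10 DAP. Here the edgeR adjusted p went from 0.081 to 0.024 without replicate 3. At 15 DAP hsp82 held 195, 62.6 and 33.5 CPM in wild type and 472, 221 and 500 CPM in L100, without a call (edgeR adjusted p = 0.14), while the summed heat shock list, of which it is 1 of 8 models, stood lower in L100. The expansin gene expA3, whose product loosens cell walls, held 24, 18.2 and 13.9 CPM in wild type and 97.5, 110 and 7.73 CPM in L100 at 10 DAP, with 3.5, 1.29 and 7.47 CPM against 66, 50 and 18.7 CPM at 15 DAP. Neither stage passed (edgeR adjusted p = 0.23 at 10 DAP, 0.054 without replicate 3, and 0.054 at 15 DAP).

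Named genes without a call at either stage, with or without that library, included well-expressed regulators and enzymes. RPB1, the large subunit of RNA polymerase II, held 82.4 to 103 CPM in wild type and 84.6 to 156 CPM in L100 at 10 DAP, and 137 to 186 CPM against 104 to 188 CPM at 15 DAP. The corepressor gene rel2 held 221 to 237 CPM in wild type and 221 to 276 CPM in L100 at 10 DAP, and 275 to 334 CPM against 160 to 254 CPM at 15 DAP (edgeR adjusted p = 0.069). The tryptophan synthase beta gene orp2 held 85.9 to 96.9 CPM in wild type and 50.1 to 80.3 CPM in L100 at 10 DAP, and 85.1 to 116 CPM against 52.4 to 78.9 CPM at 15 DAP (edgeR adjusted p = 0.07). Every L100 library lay below every wild-type one at both stages for orp2, and at 15 DAP for rel2. The kinase gene Pti1b and chr122 stood at 26.8 to 48.6 CPM and at 34.6 to 62.7 CPM over all 12 libraries. At 15 DAP the lines overlapped for chr122, and for Pti1b every L100 library lay below every wild-type one, without a call (edgeR adjusted p = 0.53). A p that misses the threshold does not show that the lines had equal levels.

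At 10 DAP, the calls made with all libraries included some in which replicate 3 stood with its group. GRMZM2G171187 and GRMZM2G086496 were higher in L100 at 10 DAP, without a call at 15 DAP, by 0.94 and 1.18 on the log2 scale (edgeR adjusted p = 0.022 and 0.028). GRMZM2G086496 held 60.2, 59.1 and 58.7 CPM in wild type and 120, 160 and 124 CPM in L100. In these 2 genes all 3 L100 libraries of 10 DAP, replicate 3 included, lay above wild type, and at 15 DAP the lines overlapped. GRMZM2G060798 and GRMZM2G394500 were higher by 0.77 and 0.71, with replicate 3 at 26.9 and 37.7 CPM against 44.8 and 40.1 CPM, and 51.9 and 59.3 CPM, in replicates 1 and 2. At these genes, and at ACO31, replicate 3 lay nearer the wild-type mean than the mean of the other L100 libraries. ACO31 held 0.253, 0.134 and 0.325 CPM in wild type and 3.47, 3.48 and 1.1 CPM in L100 (log2 fold change 3.44, edgeR adjusted p = 0.023). Whichever of the 12 libraries was left out, 1 of the 10 calls, that of bap-3b, was kept throughout.

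Besides bap-3b and CslF6-1, the genes called at both stages were GRMZM2G003765, GRMZM2G176998 and GRMZM2G171716. GRMZM2G176998 held 2.84, 2.41 and 2.76 CPM in wild type and 15.6, 11.2 and 3.4 CPM in L100 at 10 DAP, with 1.32, 2.53 and 1.82 CPM against 18, 12.2 and 10.1 CPM at 15 DAP. Its log2 fold change was 1.91 at 10 DAP, or 2.31 without replicate 3, and 2.83 at 15 DAP (edgeR adjusted p = 0.0068). GRMZM2G171716 held 2.84, 2 and 1.84 CPM in wild type and 10.9, 12.5 and 2.82 CPM in L100 at 10 DAP, and differed by 2.54 at 15 DAP (edgeR adjusted p = 0.012). GRMZM2G003765 was lower, at 80.8, 84.5 and 72.2 CPM in wild type and 38.2, 31.4 and 59 CPM in L100 at 10 DAP, and had a log2 fold change of -1 at 15 DAP (edgeR adjusted p = 0.017). In all 3 genes replicate 3 was the L100 library closest to wild type. Their 10 DAP calls were each kept in only 2 of the 12 runs with 1 library left out. The edgeR adjusted p reached 0.19 for GRMZM2G176998, 0.17 for GRMZM2G171716 and 0.15 for GRMZM2G003765. The 15 DAP calls of these genes were kept in 12, 11 and 8 of the 12 runs.

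Of the 5 genes with the highest mean level, 2 were called at 10 DAP when replicate 3 was left out. GRMZM2G099352 held 424, 375 and 339 CPM in wild type and 198, 222 and 358 CPM in L100 at 10 DAP, and its edgeR adjusted p went from 0.17 to 0.011. GRMZM2G123411 held 325, 258 and 226 CPM in wild type and 129, 82.8 and 209 CPM in L100, and its edgeR adjusted p went from 0.14 to 0.03. Neither passed at 15 DAP (edgeR adjusted p = 0.25 and 0.31). GRMZM2G079908, GRMZM2G030659 and rel2, the other 3, had no line call at either stage.

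Between 10 and 15 DAP, 83 of the 272 genes differed in wild type (30.5%), 41 higher and 42 lower at 15 DAP, against 32.7% of the 23670 genes of the level. In L100, 57 differed (21%), 22 higher and 35 lower, against 26%. Without replicate 3 of L100 at 10 DAP these counts were 99 (36.1%) and 62 (22.6%), against 33.4% and 22.1% of all genes of the level. The split by direction depended on the scaling: with library totals in place of TMM it was 13 higher and 68 lower in wild type and 13 higher and 83 lower in L100, and under that scaling the median stage difference over the 23670 genes shifted by -0.32 and -0.30. Named genes with stage calls in both lines, besides bap-3b, included hsp82, higher at 15 DAP by 6.12 in wild type and 4.66 in L100 (edgeR adjusted p = 0.0013 and 0.0036), and the sucrose-phosphate phosphatase gene SPP2, with log2 fold changes of -4.34 and -3.41 (edgeR adjusted p = 6.4e-05 and 0.00036). Without scaling to TMM, the 15 DAP line comparison gave 34 higher and 19 lower genes in the segment, and 1142 higher and 468 lower among the 23670.

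Genes close to the level threshold had values near those just outside it. The lowest mean normalized values among the genes described were 17.6 for GRMZM2G460893, 18 for GRMZM2G166639 and 18.1 for Maize_newGene_1287. The highest among genes of the segment left out were 16.9 for Maize_newGene_1398, 15.5 for AC205413.4_FG001 and 14 for GRMZM2G030181. Among the 274 genes, 28 were Maize_newGene models, and 38 overlapped another model, 32 of them on the opposite strand, so their counts are uncertain. Maize_newGene_1294, with GRMZM2G018099, made up the 2 genes that did not pass the filter on low counts.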

How the data were processed

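RNA-seq of whole maize seeds gave 12 libraries, 3 in each of 4 groups taken from the labels. The submitters' processing notes name Bowtie 0.12.2 and B73 RefGen_v3; the program that made the counts, the annotation and the strand setting are not named in the labels. The authors deposited, per library, an expected count per gene written as a whole number, a normalized signal and FPKM. From the values, the deposited signal is the unrounded estimate times 1 factor per library; it served here for the level rule only. The deposited FPKM were not used. Totals were 14014035 to 22370566 counts.

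In R 4.3.3, edgeR 4.0.16 was run on the deposited expected counts with TMM scaling, filterByExpr and 1 mean per group over all 12 libraries (robust quasi-likelihood, two-sided F tests, Benjamini-Hochberg adjustment over 24941 genes within each comparison, threshold 0.05). The steps were tested on simulated counts. CPM are TMM-scaled, differences of single libraries are on the log2(CPM + 0.5) scale, and where a group held 0 counts the fold is a bound against 3 counts per library, averaged over the group. Gene names came from a RefSeq table of assembly NAM-5.0, which matched 161 of the 274 genes.

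The members, lists and rules for naming genes were chosen with earlier results of these data known. Named genes were the 10 largest differences in each direction at 15 and at 10 DAP among called genes whose lines did not overlap, interaction calls, up to 15 well-expressed genes with informative names, the 5 of highest level, those with 0 counts in a group, those next to the level threshold and those called at both stages. NAC61 and SPP2 fall outside this rule and were picked once their values had been seen. Other settings run were DESeq2 1.42.0, RLE scaling, library totals, no filter, at least 5 CPM in 3 libraries, the 2 groups alone, the replicate number as a block, other level thresholds of 5 and 50 or over the mean of all libraries, and leaving out each library. Expression was read in the deposited tables only, and marker lists were summed for their levels without a test. A result on 1 named gene is not reported here.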

Additional observations from a re-analysis of the deposited data

Results flagged for a closer look

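Genes whose line difference was not the same at the 2 stages, by the edgeR test of the interaction over all genes, were CslF6-1 (GRMZM2G110145) and GRMZM2G173040. For CslF6-1 the difference between L100 and wild type at 15 DAP minus that at 10 DAP was -2.43 on the log2 scale (edgeR adjusted p = 0.041), with all 3 L100 libraries above wild type at 10 DAP and all 3 below at 15 DAP. For GRMZM2G173040 it was 1.40 (edgeR adjusted p = 0.047), with all 3 L100 libraries above wild type at 15 DAP and the lines overlapping at 10 DAP. The interaction of CslF6-1 held without the library labelled L100 10 DAP replicate 3, and that of GRMZM2G173040 did not.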

How the results depend on the processing

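At 10 DAP the 10 calls became 44 with DESeq2 and 5 with the 2 groups alone, and ranged from 1 (replicate 2 of either line at 10 DAP left out) to 61 (replicate 3 of L100 at 10 DAP left out) with 1 library left out; of the others, only wild-type 15 DAP replicate 1 kept it within 1.5 times. Over all genes of the level, the 10 DAP share was 7.76% with DESeq2 and 2.53% with the 2 groups alone. It was 0.989% to 5.2% with 1 library left out. At 15 DAP the 58 calls ranged from 22 (without wild-type 15 DAP replicate 2) to 80 (without L100 10 DAP replicate 3). These were 8.03% and 29.2%, against 2.58% and 7.53% of all genes of the level. Of the 58, 14 held without each library in turn. Leaving out any wild-type library of 15 DAP, or L100 replicate 1 or 2 of 15 DAP, lowered the count by over 1.5 times, to 31, 22, 25, 26 and 24. In the segment these were 11.3%, 8.03%, 9.12%, 9.52% and 8.79%. All genes of the level had 4.67%, 2.58%, 3.92%, 3.39% and 2.74% in the same runs. Settings that left out no library, level thresholds included, gave 43 to 87. With the level threshold unchanged, these were 15.8% to 31.9%, against 4.52% to 11.6% of all genes of the level. The 2 interaction calls became 12 with DESeq2 and 1 with library totals, and ranged from 0 to 2 with 1 library left out. Over all genes of the level the shares in these settings were 4.47%, 0.308%, and 0.0463% to 0.922%. The stage calls ranged from 52 (without wild-type 10 DAP replicate 1) to 99 in wild type and 45 to 75 in L100 with 1 library left out, and L100 gave 96 with library totals. Over all genes of the level the shares were 23.6% to 35.6% in wild type and 19.2% to 26% in L100. With library totals L100 had 36.9%, against 35.3% in the segment. None of 41 calls of single genes changed direction, and 12 held in every alternative run. The cause of these changes was not tested.

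Same-numbered libraries of different groups did not deviate together (18 correlations from -0.102 to 0.0436), so the numbers were not taken to pair the libraries. With the replicate block, 5 genes were called at 10 DAP (1.84%), 43 at 15 DAP (15.8%) and 0 for the interaction. Over all genes of the level the block gave 1.64%, 4.52% and 0.11%. In the edgeR fit without the block, 50 genes had an unadjusted interaction p under 0.05 (18.4%, against 17.1% of all genes of the level). For the interaction DESeq2 called 12 (4.49%, against 4.47%).

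Genes at a few counts per library limit the calls: a count of 0 leaves room for 0.152 to 0.23 CPM per library, and smaller levels cannot be told from 0.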
